A study of Mus musculus with 25 samples.

Results

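The 10 classical cadherin genes, Cdh2, Cdh4, Cdh6, Cdh7, Cdh8, Cdh10, Cdh11, Cdh12, Cdh18 and Cdh20, were followed through 8 compartments of the forming mouse palate. These are 10 of the 37406 genes measured, found by their gene symbols, each of which has 1 entry. They were selected on their RPKM in these same libraries, with earlier results on the posterior versus anterior and posterior oral versus nasal contrasts known. For that reason the posterior versus anterior and the posterior oral versus nasal differences are given as descriptions with no test. The other comparisons are tested, with p-values that do not allow for this selection. No count of the 10 genes beside a share over all genes is read as a result, in any comparison. The 8 other classical cadherins of the mouse that were examined, which mostly mark other cell types, serve as a comparison.

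All 25 libraries are labelled as wild type CD1 embryos at E14.5, the stage at which the palatal shelves have risen above the tongue. Medial, lateral, oral and nasal compartments were cut from anterior and from posterior palate by laser capture microdissection, with 3 libraries each and 4 of the anterior nasal compartment. The study calls the replicates biological, and no label ties a library to an embryo, so p-values measure the spread between these libraries, part of which may be technical. Values are RPKM, read numbers scaled to transcript length and to the mapped reads of the library, so levels can be compared between genes. A compartment holds several cell types, and in such bulk tissue fewer cells of a type and less RNA per cell cannot be told apart.

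Cadherins are adhesion receptors that span the cell membrane and bind cadherins on neighbouring cells when calcium is present. Inside the cell, classical cadherins hold beta-catenin and p120-catenin, and alpha-catenin links the complex to actin. Type I cadherins include E-cadherin (Cdh1), the epithelial form, N-cadherin (Cdh2), the form of mesenchyme, neurons and muscle, and R-cadherin (Cdh4). Type II cadherins include Cdh6, Cdh7, Cdh8, Cdh10, Cdh11, Cdh12, Cdh18 and Cdh20. Differences in the set of classical cadherins that cells display are known to sort cells into separate groups, and Cdh11 is a well known cadherin of cranial neural crest mesenchyme and of bone-forming cells.

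Windows before a RefSeq transcript start of Cdh18 and of Cdh20 are shown because these genes had the highest posterior minus anterior differences of the 10 over all libraries. RefSeq windows on GRCm38.p6 were found for 7 of the 10 genes, and the 250 bases before the transcript start are printed 5′ to 3′, both from the plus strand, with the letters CCAAT in capitals wherever they occur on either strand. The window of Cdh18 is chr15:23036213-23036462 and that of Cdh20 is chr1:104768270-104768519. The Cdh18 window is not at the outer end of the gene: its transcript start lies 487565 bases inside the RefSeq gene (chr15:22548898-23477491, same build), so an internal start is shown. The Cdh20 start lies 180 bases inside its gene. Which start these cells use was not measured.
Cdh18: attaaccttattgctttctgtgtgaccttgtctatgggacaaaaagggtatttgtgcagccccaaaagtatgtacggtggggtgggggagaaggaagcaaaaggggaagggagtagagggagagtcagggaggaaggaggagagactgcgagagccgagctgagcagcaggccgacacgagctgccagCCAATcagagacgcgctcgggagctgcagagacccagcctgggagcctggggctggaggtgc
Cdh20: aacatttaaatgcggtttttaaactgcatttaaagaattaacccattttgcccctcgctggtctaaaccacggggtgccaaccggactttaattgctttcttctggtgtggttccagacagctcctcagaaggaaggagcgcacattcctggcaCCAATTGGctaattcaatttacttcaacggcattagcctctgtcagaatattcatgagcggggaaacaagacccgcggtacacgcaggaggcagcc
The Cdh18 window holds 1 CCAAT and the Cdh20 window holds 2, on opposite strands and overlapping in the middle letters. CCAAT was looked for after these sequences had been read, and 33.8% of 32851 such windows hold it. Neither window holds TAATTA, a core bound by homeodomain proteins (4.84% of windows), ACGTG, a core bound by bHLH-PAS proteins (16.6%), CACCTG, an E-box bound by Snail and ZEB proteins (17.2%) or GGGCGG, bound by Sp1 (32.7%), on either strand. The core promoter letters TATAAA (12.4%) were also in neither. The Cdh18 window has 8 CpG dinucleotides and 58% GC, and the Cdh20 window has 10 CpG and 47.6% GC, beside medians of 6 and 52.4% over all windows.

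Implied depth was about 1640000 to 6560000 mapped reads per library, at which a single read on a transcript of 3000 bases is worth 0.0508 to 0.203 RPKM. That depth is inferred from the deposited values and lies well below the average number of reads per sample that the paper reports. Duplicates and reads with several alignments had been removed from the deposited values, and their part in this gap was not tested. Posterior medial replicate 2 stood apart, with 12935 genes above 0 where the other libraries had 16330 to 20605. Mesenchyme markers were high throughout, with the 9 of them (Prrx1, Twist1, Pdgfra, Col1a1 and others) summing to 755 to 1527 RPKM, and epithelial markers summed to 16 to 136 RPKM. Libraries were sequenced in 8 runs. All are labelled wild type, but the alignment names of posterior medial and lateral replicates 1 carry the word ERK2, and those of anterior oral replicate 3, anterior nasal replicate 4 and posterior oral and nasal replicates 1 carry Tgfbr2. Those of anterior nasal replicates 1 and 2, both of run 0297, carry Zymo and SDS. The labels do not explain these words. Counts of called genes and some of the named differences are therefore also given without the ERK2 libraries, the Tgfbr2 libraries or run 0297. Levels, shares, marker sums, correlations and the remaining differences are given with these libraries only. Anterior medial libraries all came from run 0366 and anterior lateral libraries from runs 0341 and 0391. Posterior medial libraries came from runs 0169 and 0366 and posterior lateral libraries from runs 0171 and 0391. Neither medial-lateral pair shared a run, so run and compartment cannot be told apart in either.

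Cdh11 and Cdh2 made up most of the summed RPKM of the 10 genes in every anterior library. That sum leaves out the 8 other classical cadherins, of which Cdh5 was at 22.9 to 86.3 RPKM. Cdh11, on chromosome 8, lay between 79 and 181 RPKM, and Cdh2, on chromosome 18, between 31.4 and 62.4 RPKM, and both were above 5 RPKM in all 25 libraries. Together they gave 89.8 to 96.3% of the summed RPKM of the 10 genes in the 13 anterior libraries and 87.6 to 90.7% in the 3 posterior nasal libraries. In the 9 other posterior libraries their share was 46.4 to 81.3%, and Cdh18 and Cdh20 together gave 11.9 to 32.9%. The same Cdh18 and Cdh20 share was 0.365 to 5.46% in the anterior and 1.35 to 6.16% in posterior nasal libraries. The summed level itself was 148 to 243 RPKM in anterior and 151 to 264 RPKM in posterior libraries, so the make-up moved further than the total.

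**Figure D1:**
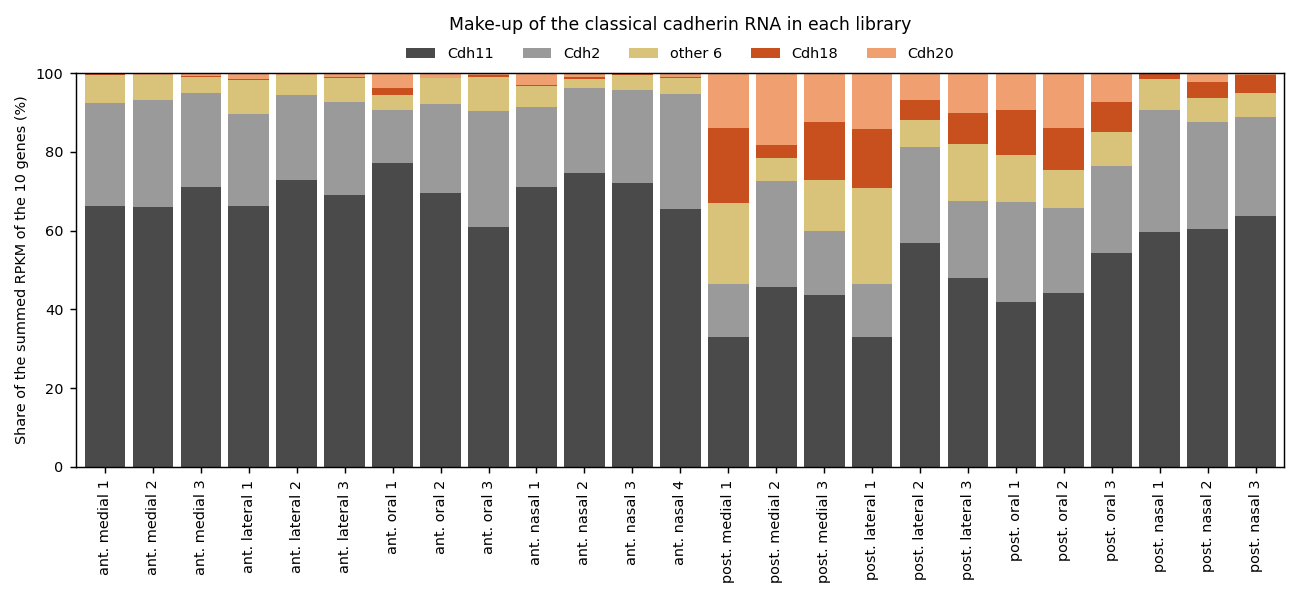
Share (%) of each gene in the summed RPKM of the 10 classical cadherins, with 1 bar for each of the 25 libraries and the 6 genes of lower level drawn together. Cdh11 and Cdh2 fill 89.8 to 96.3% of each anterior bar, and Cdh18 and Cdh20 fill 11.9 to 32.9% of the posterior medial, lateral and oral bars.

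The remaining genes were lower and more local. Cdh6 reached 5 RPKM in 18 libraries, Cdh18 and Cdh20 in 11 each, Cdh8 in 4, Cdh7 in 3 and Cdh4 in 2. Neither Cdh10, at 0.152 to 3.68 RPKM, nor Cdh12, at 0 to 4.46 RPKM, reached 5 RPKM anywhere. Cdh4 was listed at 0 in 1 library, Cdh7 in 3 and Cdh12 in 4, and the other genes were above 0 in all.

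**Figure D2:**
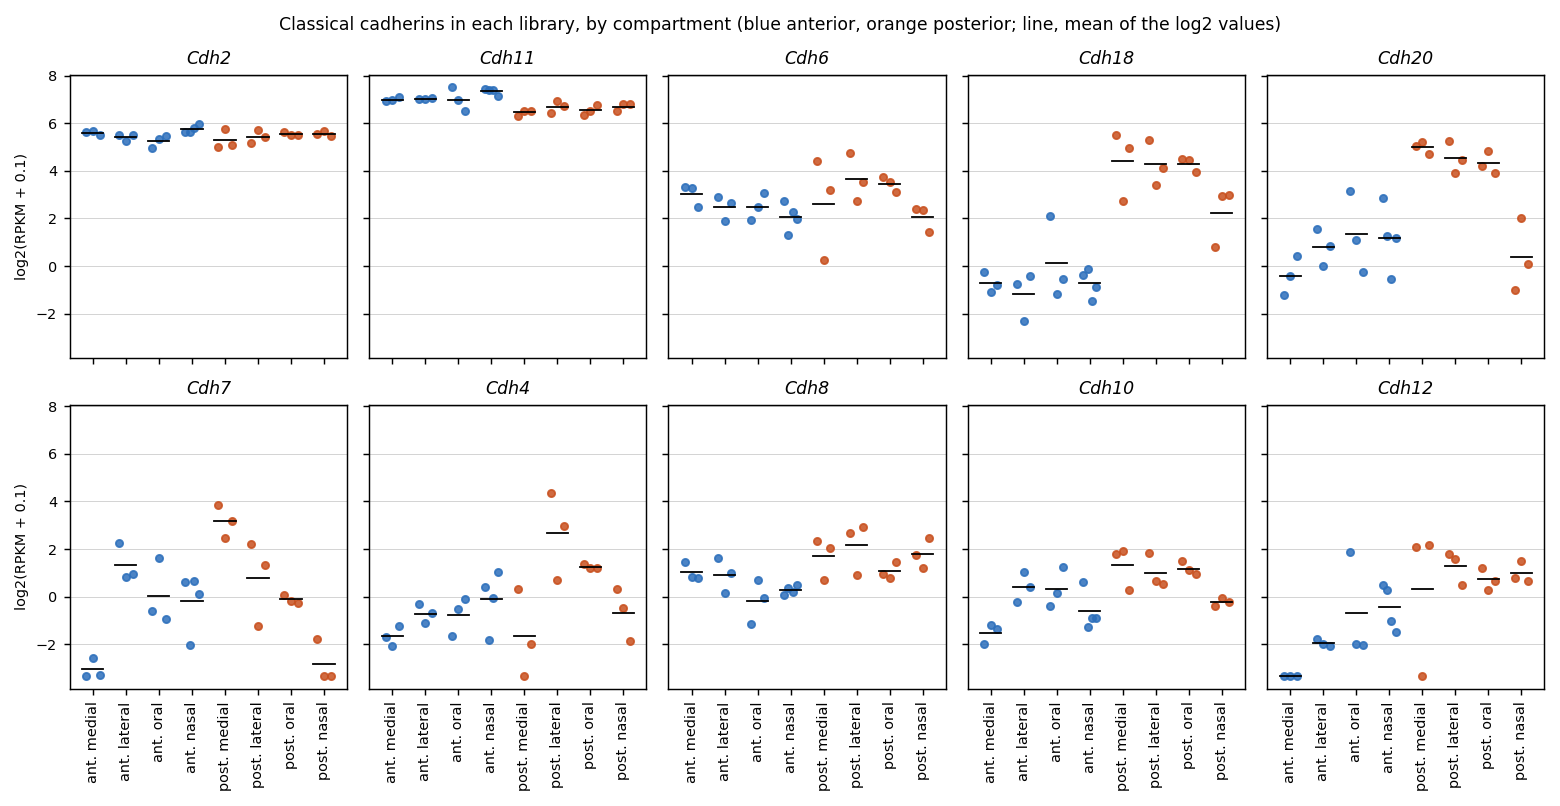
Level of each of the 10 genes as log2(RPKM + 0.1), with 1 point for each library, the compartments along the x axis, anterior in blue and posterior in orange, and a line at the mean of the log2 values. Points at the bottom of the Cdh7, Cdh4 and Cdh12 panels are libraries listed at 0. Cdh2 and Cdh11 stay within a narrow band, while Cdh18 and Cdh20 are high in posterior medial, lateral and oral libraries.

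Cdh18, a type II cadherin best known from the nervous system (chr15:22478777-23404173 on mm9), was a posterior gene in all compartments. In posterior medial libraries it was at 45.5, 6.45 and 31.1 RPKM, in lateral at 39.4, 10.6 and 17.4, in oral at 22.5, 21.9 and 15.4, and in nasal at 1.63, 7.48 and 7.76. The 13 anterior libraries ran from 0.0999 to 4.14 RPKM with a median of 0.497. Within each compartment every posterior library lay above every anterior one. Across compartments, posterior nasal replicate 1, at 1.63 RPKM, lay under anterior oral replicate 1, the highest anterior library. Over all libraries the posterior mean was 18.9 ± 13.8 RPKM (SD, n = 12) and the anterior mean 0.776 ± 1.03 (SD, n = 13), a log2 difference of 4.43 (95% interval 3.52 to 5.34), or 21.5-fold, on the log2(RPKM + 0.1) scale used throughout. The fit of all posterior against all anterior libraries had no term for compartment, for this or any other gene. Its intervals, and the SDs beside them, therefore also hold differences between compartments. Posterior minus anterior was 5.11 in medial, 5.45 in lateral, 4.18 in oral and 2.94 in nasal on the log2 scale. Where anterior and posterior libraries shared a run, the log2 difference was 4.55 in medial (run 0366), 4.21 in lateral (run 0391), 5.02 in oral and 1.67 in nasal (both run 0175). These rest on 2 posterior and 3 anterior libraries in medial and on 2 and 1 in lateral. In oral and in nasal they rest on 1 library each, all named Tgfbr2.

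Cdh20, a type II cadherin known from migrating neural crest and the early nervous system (chr1:106665396-106892058 on mm9), was posterior in 3 of the 4 compartments. It was at 33.2, 36.7 and 26 RPKM in posterior medial libraries, at 37.5, 14.7 and 21.8 in lateral and at 18.1, 28.5 and 14.9 in oral. Posterior nasal libraries held 0.398, 3.95 and 0.964 RPKM, inside the anterior range of 0.329 to 8.69 RPKM (median 1.67). The 2 highest anterior libraries, oral replicate 1 at 8.69 and nasal replicate 1 at 7.14 RPKM, both came from run 0297. Posterior minus anterior was 5.39 in medial, 3.74 in lateral, 2.98 in oral and -0.82 in nasal on the log2 scale, with no overlap in the first 3 and overlap in nasal. Over all libraries the log2 difference was 2.79 (95% interval 1.46 to 4.11), with 19.7 ± 13.3 RPKM (SD, n = 12) in posterior and 2.4 ± 2.58 (SD, n = 13) in anterior. Leaving out run 0297 gave 3.28 for Cdh20 and 4.77 for Cdh18. Without the libraries named ERK2 the differences were 2.47 and 4.11, and without those named Tgfbr2 they were 3.12 and 4.64.

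Levels of Cdh18 and Cdh20 ran together, with a Pearson correlation of 0.82 and a Spearman correlation of 0.76 on the log2 scale over 25 libraries, which share compartments, runs and depth. The posterior nasal compartment parted them. There Cdh18 kept a mean of 5.62 ± 3.46 RPKM, above all 4 anterior nasal libraries, and Cdh20 was at 1.77 ± 1.91 (SD, n = 3 each). In the order of compartment means, posterior medial, lateral and oral came first for both genes and overlapped one another. For Cdh20 all of their libraries lay above every library of the other compartments. For Cdh18 the posterior oral libraries lay above the posterior nasal ones, but posterior medial replicate 2, at 6.45 RPKM, lay below posterior nasal replicates 2 and 3. For Cdh18 the genes of most similar pattern were Meox2 (r = 0.914) and Sim2 (r = 0.909), which encode transcription factors, and Flrt2 (r = 0.903), which encodes a leucine-rich repeat membrane protein. For Cdh20 they were Phactr1 (r = 0.894), Flrt2 (r = 0.884) and Pde1a (r = 0.842), taken from 11913 genes that reached 5 RPKM in 3 libraries or more.

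**Figure D3:**
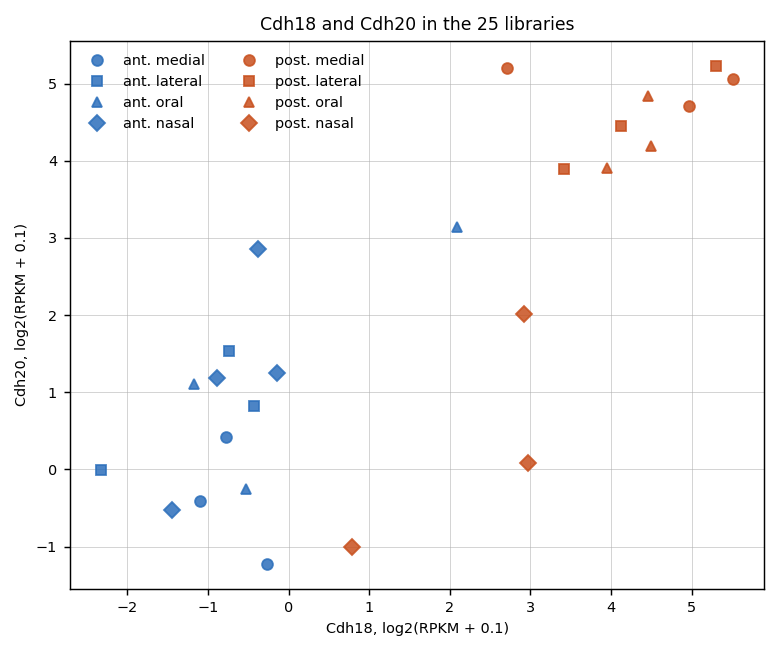
Cdh18 (x axis) against Cdh20 (y axis), both as log2(RPKM + 0.1), with 1 point for each of the 25 libraries, colour for anterior (blue) or posterior (orange) and shape for compartment. Posterior medial, lateral and oral libraries gather at the upper right, and the 3 posterior nasal libraries, with Cdh20 at 0.398 to 3.95 RPKM, sit below them at the height of the anterior libraries.

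Along the whole anterior-posterior axis, 5 of the 10 genes passed the thresholds of the study (fold change over 2 with P under 0.05 before adjustment), all with posterior higher. None of the 10 had posterior and anterior libraries without overlap, which held for 0.266% of all genes. The share over all 8652 genes fitted was 1.83%, and since the genes were chosen with this contrast known nothing is read from the count. Beside Cdh18 and Cdh20 they were Cdh12 (2.34, 95% interval 1.16 to 3.52), Cdh8 (1.19, 0.60 to 1.78) and Cdh10 (1.19, 0.46 to 1.91), all log2 differences. Cdh8 fell just under 2-fold without run 0297 (0.97) and Cdh10 without the libraries named ERK2 (0.99). The median over the 10 genes was 1.17 and over all genes 0.03. Of the 10, 4 met the expression minimum of this comparison, at least 10 RPKM in at least 6 libraries. Cdh11 went the other way, at 97.7 ± 13.7 RPKM (SD, n = 12) in posterior and 140 ± 26 (SD, n = 13) in anterior libraries, a log2 difference of -0.51 (95% interval -0.72 to -0.30). The 3 posterior libraries lay under all anterior ones of the same compartment in medial, lateral and nasal, and in the oral compartment they overlapped. The interval of Cdh2, -0.30 to 0.13 around -0.08, held 0.

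The lower-level genes had their own compartments within that axis. In the medial compartment the anterior libraries of Cdh12 were listed at 0 in all 3, and the posterior ones were at 4.14, 0 and 4.46 RPKM, with the 0 in posterior medial replicate 2. Cdh10 was at 3.35, 3.68 and 1.11 RPKM in posterior medial libraries and at 0.152, 0.334 and 0.288 in anterior medial ones. These Cdh10 groups did not overlap. In the medial compartment that held for 5 of the 10 genes, 4 with posterior higher and 1 with posterior lower, beside 11.9% of all genes examined there. The counts of higher and lower were 4 and 1 in lateral (18.9% of all genes), 6 and 0 in oral (8.3%) and 3 and 1 in nasal (20.3%). Cdh8, a type II cadherin of brain circuits, was at 1.51 to 7.51 RPKM in posterior and 0.348 to 2.96 in anterior libraries. Its posterior libraries lay above its anterior ones without overlap within the oral and within the nasal compartment.

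In the posterior palate the oral and nasal compartments were set apart by 6 of the 10 genes, again given as a description. Cdh20 was at 18.1, 28.5 and 14.9 RPKM in oral and 0.398, 3.95 and 0.964 in nasal libraries, a log2 difference of 3.94 (95% interval 2.39 to 5.49). Cdh18 differed by 2.08 (0.81 to 3.34). Both genes were higher in the oral libraries within each run that the compartments shared, Cdh20 by 5.19 in run 0175 and 2.36 in run 0366, and Cdh18 by 3.71 and 1.28. Run 0175 held 1 library of each compartment, both named Tgfbr2, and run 0366 held 2 oral and 1 nasal. Cdh6, a type II cadherin known from kidney and neural crest, was at 13.1, 11.6 and 8.56 RPKM in oral and 5.14, 5.07 and 2.57 in nasal libraries, a log2 difference of 1.40 (0.67 to 2.13). Cdh4 was at 2.5, 2.21 and 2.21 against 1.14, 0.621 and 0.179 RPKM, and Cdh10 at 2.72, 2.06 and 1.81 against 0.656, 0.852 and 0.754. Cdh7 was at 0.96, 0.788 and 0.742 RPKM in oral libraries and at 0.188, 0 and 0 in nasal ones. For these 6 genes every oral library lay above every nasal one, where 11.9% of 10623 genes had groups without overlap, and the study thresholds were passed by the same 6 and by 3.61% of all genes. Since the genes were chosen with this contrast known, nothing is read from these counts. Without the 2 libraries named Tgfbr2 the log2 difference was 3.32 for Cdh20 and 1.26 for Cdh18. The 4 other genes of the 10, Cdh2, Cdh8, Cdh11 and Cdh12, overlapped between oral and nasal. Cdh8 had its higher mean in nasal, at 3.64 ± 1.66 against 2.04 ± 0.565 RPKM (SD, n = 3 each).

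Other cell types moved with the posterior oral and nasal compartments as well. The 6 osteoblast markers summed to 378 to 547 RPKM in posterior nasal libraries and to 46.9 to 185 RPKM in all others, and 4 of the 6 (Runx2, Sp7, Ibsp and Alpl) passed an adjusted p under 0.05 with nasal higher. Over all genes the number called in this contrast was 136, and 4 without the 2 libraries named Tgfbr2. Endothelial markers summed to 56.8 to 85.3 RPKM in nasal and 128 to 186 in oral libraries. Their part in the cadherin differences was not tested.

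In the anterior palate the lateral compartment was compared with the medial one. Cdh7, a type II cadherin known from neural crest and Schwann cell precursors (chr1:111878904-112035578 on mm9), was at 4.64, 1.68 and 1.86 RPKM in lateral libraries and at 0, 0.0695 and 0.00281 in medial ones. Every lateral library lay far above every medial one. The log2 difference was 4.40 with a standard error of 0.39 (limma, adjusted p = 0.00296 over 10467 genes). The medial values lie below that of a single read on 3000 bases, so the size of the difference is set by the pseudocount, at 1.78 with 1 and 6.82 with 0.01, and no fold is given. Cdh10 was at 0.75, 1.98 and 1.23 RPKM in lateral and 0.152, 0.334 and 0.288 in medial libraries, without overlap, a log2 difference of 1.93 with a standard error of 0.34 (adjusted p = 0.0338). Its call was lost when any library other than anterior lateral replicate 1 was left out, with adjusted p of 0.0894, 0.0818 and 0.0808 without medial replicates 1, 2 and 3 and of 0.0849 and 0.139 without lateral replicates 2 and 3. Cdh12 was listed at 0 in all 3 medial libraries and was at 0.191, 0.152 and 0.138 RPKM in lateral ones, close to the value of a single read, so no fold is given. Its adjusted p was 0.00249, from groups with almost no spread, and with the spread estimated over all 25 libraries it was 1. Cdh20, at 2.8, 0.895 and 1.67 against 0.329, 0.655 and 1.24 RPKM, differed by 1.18 with a standard error of 0.49 and did not pass (limma, unadjusted p = 0.0455, adjusted p = 0.316).

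Thus 3 of the 10 genes passed the adjusted test in the anterior medial-lateral comparison, all higher in lateral, beside 2.54% of all genes tested. That share stands for 266 genes, a number that fell to between 55 and 185 when single libraries were left out, lowest without anterior lateral replicate 3. The study thresholds were passed by 4 genes, beside 2.46%, and 4 genes had groups without overlap, beside 21.3%. Of the 10, 3 met the minimum of 5 RPKM in at least 3 libraries (Cdh2, Cdh6 and Cdh11), and none of the 3 called genes did. Of the 10467 genes tested, 10427 met it, so the shares are not of like genes. Since the 10 were selected on their RPKM in these same libraries, nothing is read from these counts. With run as a term in a fit over all 25 libraries no gene of the table was called in this comparison, and Cdh7 differed by 4.38 with a standard error of 1.57 (adjusted p = 1). The 3 abundant genes overlapped between lateral and medial, with intervals of -0.46 to 0.13 for Cdh2, -0.20 to 0.29 for Cdh11 and -1.27 to 0.20 for Cdh6 on the log2 scale.

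The 10 nerve and Schwann cell markers moved in both directions between the anterior lateral and medial compartments. Sox10 (6.66 against 1.2 RPKM, adjusted p = 0.00452) and Foxd3 (1.89 against 0.301 RPKM, adjusted p = 0.0277) were higher in lateral libraries, as was the neuronal gene Stmn2 (adjusted p = 0.0149). The peripheral neuron gene Prph was lower (3.44 against 33.1 RPKM, adjusted p = 0.0179). Tubb3, another neuronal gene, was at 1.68 against 8.62 RPKM, without passing (limma, adjusted p = 0.138). The summed level of the list was 27.6 to 31.6 RPKM in lateral and 41.9 to 65 RPKM in medial libraries. Cartilage genes Sox9, Acan and Col9a1 were lower in lateral libraries, and the 5 chondrocyte markers summed to 20.7 to 21.6 RPKM in lateral and 67.6 to 109 RPKM in medial. The part of these cells in the cadherin differences was not tested.

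In the posterior palate the same comparison called none of the 10 genes, and none of 10366 genes at all, with 2 of the 10 and 166 genes at an unadjusted p under 0.05 in limma. The study thresholds were passed by 2 of the 10 and by 1.18% of all genes, and groups without overlap were found for the same 2 and for 6.66%. Cdh7 was at 14.4, 5.43 and 8.98 RPKM in medial and 4.6, 0.331 and 2.45 in lateral libraries, so every lateral library lay under every medial one. The log2 difference was -2.38 with a standard error of 0.91 (limma, unadjusted p = 0.0388, adjusted p = 0.957). Cdh4, R-cadherin, known from retina, muscle and vessels (chr2:179177183-179634080 on mm9), was at 20.1, 1.51 and 7.68 RPKM in lateral and 1.16, 0 and 0.155 in medial libraries, a log2 difference of 4.31 with a standard error of 1.22 (limma, unadjusted p = 0.0115, adjusted p = 0.957). Posterior lateral replicate 1 held the highest Cdh4 of all 25 libraries and also the highest sum of the 8 skeletal muscle markers, 112 RPKM against 19.6 and 25.7 in the other lateral libraries, with Actc1 at 53.3 and Myod1 at 2.45 RPKM. In the other posterior lateral libraries Cdh4, at 1.51 and 7.68 RPKM, lay above all medial libraries. Myod1 was listed at 0 in those lateral libraries, as it was in the medial ones, but the muscle markers there summed to 19.6 and 25.7 RPKM. In posterior medial libraries that sum was 2.98 to 21.7 RPKM. The part of muscle in the Cdh4 level was not tested. The 2 libraries named ERK2 include posterior lateral replicate 1. Without them the log2 differences were 4.47 for Cdh4 (limma, adjusted p = 0.744) and -2.76 for Cdh7 (adjusted p = 0.744).

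The posterior medial compartment was the peak of Cdh7, with 9.61 ± 4.53 RPKM (SD, n = 3), above every library of the 7 other compartments. Anterior lateral followed with 2.73 ± 1.66 and posterior lateral with 2.46 ± 2.13, and their ranges overlapped. At the other end stood posterior nasal, with 0.0625 ± 0.108, and anterior medial, with 0.0241 ± 0.0393 RPKM, below every library of the 6 other compartments except anterior nasal replicate 2, at 0.142 RPKM. Thus Cdh7 was at opposite ends of its range in the anterior and the posterior medial compartment. The posterior minus the anterior lateral-medial difference was -6.78 on the log2 scale, with a 95% interval of -9.24 to -4.33 and values of -3.53 and -9.32 with pseudocounts of 1 and 0.01 (limma interaction term, unadjusted p = 0.000103, adjusted p = 0.17 over 11118 genes). With the spread taken from all 25 libraries the adjusted p was 0.0226, with run added 0.302, and without the libraries named ERK2 0.189. No gene of the 10 was called by this interaction, beside 0.00899% of all genes, and 4 of the 10 passed the study thresholds, beside 2.46%. The others were Cdh4 (3.36, standard error 1.39, adjusted p = 0.964), Cdh10 (-2.25, standard error 0.74, adjusted p = 0.964) and Cdh20 (-1.65, standard error 0.71, adjusted p = 0.964).

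**Figure D4:**
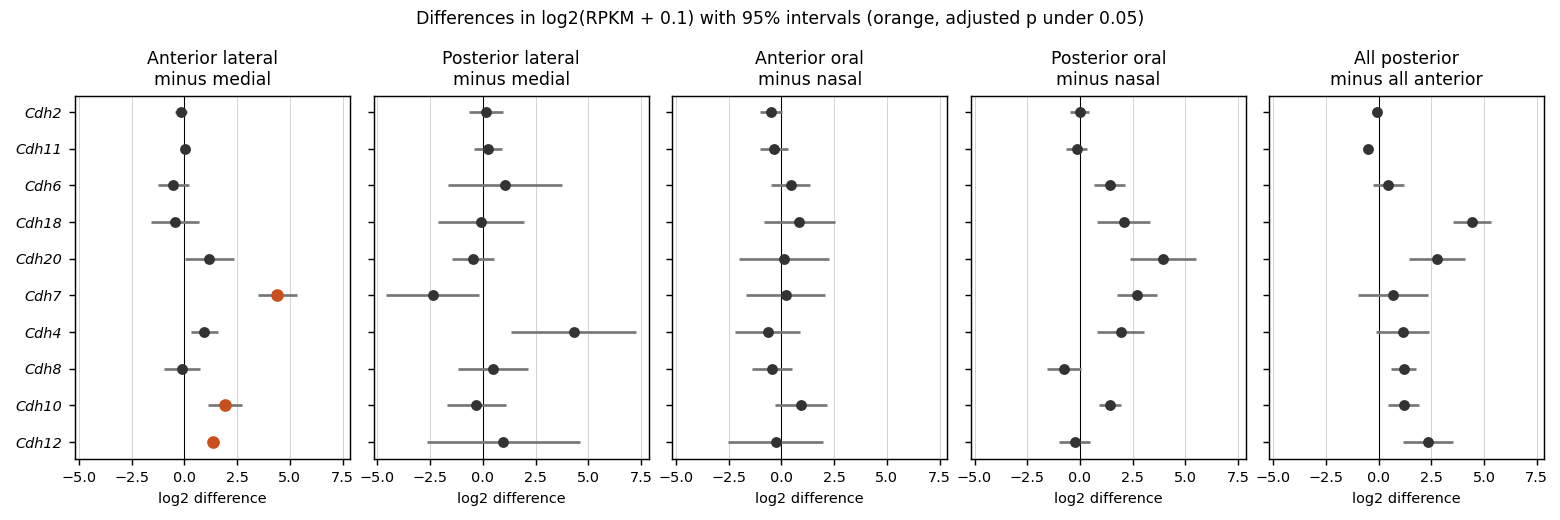
Log2 difference of each gene with its 95% interval for 5 comparisons (lateral less medial, oral less nasal, posterior less anterior), with genes in rows and a line at 0. Orange points passed an adjusted p under 0.05 and are Cdh7, Cdh10 and Cdh12 in the anterior medial-lateral comparison. The posterior oral and nasal and the posterior and anterior panels are descriptions with no test.

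Between the anterior oral and nasal compartments none of the 10 genes was called. None passed the study thresholds, passed by 1.5% of all genes, and none reached an unadjusted p under 0.05 in limma, where 325 of 10720 genes did and none passed adjustment. Cdh2 came nearest, at 31.4, 40.6 and 43.7 RPKM in oral and 49.4, 49.5, 55.9 and 62.4 in nasal libraries. Every oral library lay under every nasal one, as for 3.68% of all genes, and the oral value was the lower one within all 3 shared runs, by log2 differences of -0.65, -0.46 and -0.51. Each of these runs held 1 oral library, with 2 nasal libraries in run 0297 and 1 in each other run. The interval of the Cdh2 difference was -1.03 to 0.03 around -0.50 (limma, adjusted p = 1). For Cdh20, whose posterior oral and nasal libraries lay far apart, the anterior log2 difference was 0.14 with an interval of -1.99 to 2.27. That interval leaves out differences above 2.27, among them the posterior 3.94, and differences within it could not be resolved. The difference between anterior and posterior was not tested.

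Of the cytoplasmic partners of the cadherins, 5 of 10 listed (Ctnnb1, Ctnna1, Ctnnd1, Pkp4 and Vcl) were above 5 RPKM in every library, and Ctnna3 and Ctnnd2 in none. Beta-catenin (Ctnnb1) was at 78.5 to 146 RPKM, alpha-catenin (Ctnna1) at 37.3 to 58.5 and p120-catenin (Ctnnd1) at 26.9 to 60.6 RPKM over the 25 libraries. Of the 10 catenins and linked proteins, Arvcf, a p120 relative, was higher in anterior lateral than medial libraries (5.07 against 3.05 RPKM, adjusted p = 0.026), and none passed an adjusted p under 0.05 in the other comparisons. Ctnna3 was listed at 0 in the anterior medial libraries and averaged 0.399 RPKM in lateral ones (adjusted p = 0.0636). None of 5 nectins and afadin and none of 5 proteases that cut cadherins passed an adjusted p under 0.05 in any comparison, and Adam12 was nearest, at 9.68 RPKM in posterior oral and 19.8 in nasal libraries (adjusted p = 0.0975). Of 5 transcription factors known to switch cells from E- to N-cadherin, Snai1 was lower in anterior lateral libraries (14.2 against 40.7 RPKM, adjusted p = 0.0181), and none of the 5 was called elsewhere.

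Among the 8 other classical cadherins, no gene was called along the anterior-posterior axis. Their median log2 difference there was -0.22, beside 1.17 for the 10 genes and 0.03 for all genes. The 10 were chosen with this contrast known, so nothing is read from that gap. Endothelial Cdh5 was at 22.9 to 86.3 RPKM and Cdh24, a broadly expressed type II cadherin, at 0 to 26.5 RPKM, and epithelial Cdh1 stayed between 0.304 and 15.6 RPKM. In the posterior palate Cdh19, a cadherin of Schwann cell precursors, was higher in oral libraries (1.48 against 0.259 RPKM, adjusted p = 0.0298) as was Cdh9 (0.312 against 0.0298 RPKM, adjusted p = 0.0345), and Cdh22 was higher in nasal ones (1.28 against 0.125 RPKM, adjusted p = 0.0291). These levels lie near the value of a few reads. Cdh19 also averaged 2.26 RPKM in anterior lateral and 0.456 in medial libraries, without passing (adjusted p = 0.0985).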

How the data were processed

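RNA from laser captured compartments of E14.5 palate was amplified (NuGEN Ovation RNA-Seq V2), tagmented with Nextera and sequenced as single-end reads of 50 bases. The authors deposited RPKM values for each gene, made with GeneSpring after duplicate reads and reads with several alignments had been removed. TopHat and mm9 are listed in the submitters' processing notes. Removing duplicates limits the reads that an abundant transcript can keep, so differences in Cdh11 and Cdh2 may be understated. No counts were used here, and depth was worked out from steps between low RPKM values. Intervals cover the spread between libraries.

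Groups and replicate numbers were taken from the sample titles and runs from the names of the alignments. The log2(RPKM + 0.1) values were fitted in limma (version 3.58.1, R 4.3.3), and p was adjusted by Benjamini-Hochberg over the genes reaching 5 RPKM in 3 compared libraries or more (10 RPKM in 6 for posterior against anterior), plus the 10 cadherins and the listed genes at any level. The method was tested on simulated data. The cadherins, gene lists and comparisons were chosen with earlier results of these data known. Full statistics are given for cadherins past the study thresholds (fold change over 2, P under 0.05 before adjustment) in a tested comparison, and similar patterns for the 3 genes of highest Pearson correlation. Same-numbered libraries deviated together in the anterior oral and nasal pair (correlations 0.24, 0.21 and 0.13), which was taken as pairing. Run does not follow those numbers, since oral replicates 2 and 3 shared runs 0324 and 0175 with nasal replicates 3 and 4. A replicate block left the count of called cadherins in this pair at 0 but does not check pairing by run. Alternatives were other pseudocounts, scalings and filters, a variance trend, the replicate block, a fit over all libraries with and without run, and leaving out each library. Promoter windows and their letters come from RefSeq on GRCm38.p6, a different build from the deposited coordinates, and only the bases before the start were used.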

Additional observations from a re-analysis of the deposited data

Results flagged for a closer look

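The lateral-medial difference of Cdh7 pointed in opposite directions in the anterior and the posterior palate, with every lateral library above every medial one in the anterior and below in the posterior. The difference of the differences was -6.78 on the log2 scale, tested by the limma interaction term (adjusted p = 0.17). Lateral and medial libraries shared no run in either palate region, so run and compartment cannot be told apart here.

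In the 4 anterior nasal libraries, Cdh10 in replicate 1, at 1.44 RPKM, lay far above the others, at 0.311 to 0.441 RPKM, with a gap of 0.885 of the whole range. Cdh11 in replicate 4, at 140 RPKM, lay below the others, at 170 to 172 RPKM, with a gap of 0.923 of the range. Each of the 10 genes was examined in this way in that compartment, and chance alone gives about 1 in 20 such gaps.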

How the results depend on the processing

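The count of cadherins called between anterior lateral and medial was 3, and 1 with a pseudocount of 1, with a mean-variance trend or with the spread taken from all 25 libraries, and 0 with run added to that fit. It was 2 to 3 when single libraries were left out. Cdh7 kept its direction in every alternative there, with differences of 1.78 to 6.82 and adjusted p of 0.00148 to 1, the highest with run added. Adjusted p ran from 0.0143 to 1 for Cdh10 and from 3.45e-05 to 1 for Cdh12. The fit over all 25 libraries raised the count from 0 to 1 in the posterior medial-lateral comparison (Cdh4, adjusted p = 0.0351) and in the interaction (Cdh7, adjusted p = 0.0226). Single libraries left out kept both at 0, with adjusted p of 0.0828 to 0.58 for Cdh7 in the interaction. Of the descriptions, the 5 cadherins past the thresholds between posterior and anterior became 3 with a pseudocount of 1 and 3 with run added, and the 6 in posterior oral against nasal stayed between 4 (pseudocount of 1) and 7. No difference changed sign. The cause of these changes was not tested.

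The replicate block left the counts at 3, 0, 0 and 0 in the tested comparisons and at 6 in posterior oral against nasal, and gave 6 in place of 5 in posterior against anterior. In the other pairs same-numbered libraries had correlations of -0.15 to 0.01 in anterior and 0.04 to 0.28 in posterior medial and lateral, and -0.08 to 0.42 in posterior oral and nasal, so there not every pair passed 0.1 and the numbers were not taken as pairing. Posterior oral and nasal replicates 1 do share run 0175 and the Tgfbr2 name, and posterior medial and lateral replicates 1 the ERK2 name.

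Over all genes, those past the study thresholds were 258 in anterior lateral against medial (138 to 986 over alternatives other than leaving out single libraries), 122 in posterior (79 to 528), 161 in anterior oral against nasal (85 to 723), 383 in posterior (194 to 1082), 273 in the interaction (168 to 666) and 158 in posterior against anterior (138 to 983). Genes with an adjusted p under 0.05 were 266 (0 to 317), 0 (0 to 26), 0 (0 to 6), 136 (4 to 148), 1 (0 to 10) and 290 (145 to 484) in the same order. When single libraries were left out they were 55 to 185, 0 to 1, 0 to 1, 11 to 57, 0 to 9 and 235 to 422. The lowest values were without anterior lateral replicate 3 (55) and posterior nasal replicate 3 (11). Those past the study thresholds were then 192 to 261, 70 to 298, 120 to 264, 286 to 390, 198 to 733 and 150 to 167. Of the genes called between posterior and anterior, 50.3% were higher in posterior, 39.1% after centring on the median and 40% after quantile normalization.

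Alternatives chosen after seeing the data left out run 0297, the libraries whose alignment names carry ERK2 or those that carry Tgfbr2, each where it enters. The counts stayed at 0 in the posterior medial-lateral, interaction and anterior oral-nasal comparisons and at 6 in posterior oral against nasal, and were 4, 4 and 5 in posterior against anterior. No share over all genes is set beside these counts, and nothing is read from them. Genes called in posterior oral against nasal fell from 136 to 4 without the Tgfbr2 names, with fewer libraries. With a single read worth up to 0.203 RPKM on 3000 bases, differences of Cdh12, Cdh4 and Cdh7 at the low end rest on few reads.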

Other observations

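The 5 classical cadherin genes Cdh6, Cdh9, Cdh10, Cdh12 and Cdh18 lie in that order on chromosome 15 in the deposited mm9 coordinates, and Cdh20, Cdh7 and Cdh19 lie on chromosome 1. The neighbours Cdh12 (chr15:21041207-21519288) and Cdh18 (chr15:22478777-23404173) had a correlation of 0.73 over the 25 libraries, and Cdh10 and Cdh12 one of 0.36. On chromosome 1 Cdh7 and Cdh20 had 0.59. Cdh10 on chromosome 15 and Cdh20 on chromosome 1 had 0.7, so position went with likeness in some pairs and not in others. These are descriptions over libraries that share compartment, run and depth.

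Cdh11 had negative correlations with each of the other type II genes among the 10, for example -0.65 with Cdh18, -0.62 with Cdh10 and -0.6 with Cdh8 over the same libraries. Cdh4 ran with Cdh6 (0.67), and both were highest in posterior lateral replicate 1, at 20.1 and 26.7 RPKM. The genes of most similar pattern to Cdh11 were 5031426D15Rik (r = 0.899), Frmd3 (r = 0.872) and Nfib (r = 0.865), to Cdh7 Vps13b (r = 0.834), Vegfc (r = 0.831) and Slain1 (r = 0.828), and to Cdh6 Hivep2 (r = 0.845), Ptprj (r = 0.835) and Rgl1 (r = 0.807).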
